A study of Mus musculus with 20 samples.

Results

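T cells were compared with the other blood cells of the series by setting the mean of 4 T cell groups against the mean of 6 other cell types, with equal weight for each group. The T cell side was made up of naive CD4, naive CD8, activated CD4 and activated CD8 T cells, 8 of the 20 arrays. The other side held B cells, natural killer (NK) cells, monocytes, granulocytes, nucleated erythrocytes (red cell precursors that still hold a nucleus) and long-term hematopoietic stem cells (LT-HSC), 12 of the 20 arrays. All groups came from C57Bl/6 mice with no engineered allele in the labels, given as female and 12 to 14 weeks old. Every array held material pooled from 4 samples, made from 25000 to 50000 cells sorted by flow cytometry. Apart from sorting and amplification, the labels name a treatment for the 2 activated groups only, lipopolysaccharide (LPS); the dose, the time, the tissue of origin and the sorting antibodies of the T cells were not stated there. Each group had 2 arrays, hybridised to the Affymetrix Mouse430_2 platform, and 9810 genes were tested on deposited log2 expression values. The series was made to describe expression fingerprints of blood stem cells and their progeny, and this comparison asks what separates T cells as a class from the other types.

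A T cell recognises antigen through a clonal receptor of alpha and beta chains, which has no signalling tail of its own and relies on the CD3 gamma, delta and epsilon chains and the zeta chain Cd247. Receptor contact starts a kinase cascade through adaptors such as Lat, and costimulatory receptors such as Cd28 and Icos set how strongly a cell responds. NK cells and B cells share parts of this machinery, since NK cells use the zeta chain with their own receptors, and B cells signal through the related kinase Syk.

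In what follows, a log2 difference of 1 is a 2-fold change and ± gives the standard error of the fit. A gene was called higher or lower at an adjusted p under 0.05 (limma, Benjamini-Hochberg over 9810 genes) together with a log2 difference of at least 1. The p-values measure the spread between the 2 pooled arrays of a cell type, not between single mice. Values near 2 to 3 lie at the low end of the scale, and a difference from them may be compressed. In these sorted bulk samples, fewer cells carrying a transcript and less transcript per cell cannot be told apart.

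Depth has no counterpart on an array, and 7091 to 7904 genes per array lay above a log2 value of 5. The 6 measured T cell markers (Cd3d, Cd3e, Cd3g, Cd5, Cd6 and Lat) averaged 9.41 to 11.09 in the T cell arrays and 3.03 to 4.83 in the others, so the class label held. Cd8a was at 13.44 and 13.29 in the naive CD8 arrays, 12.91 and 12.42 in the activated CD8 arrays, and 4.58 to 5.63 in the 4 CD4 arrays. Cd4 lay under the filter on low values, so the CD4 label was not checked by it. The Y-linked gene Eif2s3y was at 10.73 to 12.84 in 6 of the 8 T cell arrays, against 3.05 to 3.45 in all 12 other arrays, although the labels give every sample as female. The 2 T cell arrays without it were those numbered 2 of the naive CD4 and naive CD8 groups, with 3.23 and 3.36. Kdm5d, also Y-linked, was called higher in T cells (4.75) and Xist lower (-4.60). Xist means were 7.4 and 10.2 in naive CD4 and CD8, 6.0 and 5.6 in activated CD4 and CD8, and 10.4 to 13.1 in the other types. Y-linked signal was thus seen on the T cell side only, and the part of sex in the comparison was not tested. Some markers of other cells were also present in all 4 naive T cell arrays, such as Csf1r at 7.91 to 10.21 and Ms4a1 at 7.16 to 8.58, and those of granulocytes in part of them. The erythroid list stayed low (mean of its 4 markers 2.58 to 2.98), and the NK markers Ncr1, Klre1 and Klrb1a and the B cell marker Cd79a were under 5 in all 8 arrays. The Cd79a probe set averaged only 6.745 in B cells, and the B cell marker Cd79b was at 4.84 to 8.56 in naive and 2.88 to 6.09 in activated arrays. The 4 NK markers averaged 5.01 to 5.84 in the naive arrays and 2.99 to 4.99 in the activated arrays, the highest of them being Klrd1. The 4 granulocyte markers averaged 3.69 to 7.45 in the naive arrays and 3.72 to 3.82 in the activated arrays, with S100a9 at 10.68 in naive CD4 array 2 and at most 3.99 in the other 7 T cell arrays. S100a8 was at 10.75 in that array and 6.49 in naive CD8 array 2. Csf3r (5.63 to 5.78) and Cxcr2 (2.62 to 2.73) were level over all 8. The 3 measured monocyte markers averaged 5.97 to 6.92 in naive and 4.17 to 4.80 in activated arrays, the 3 B cell markers 4.84 to 6.55 and 3.70 to 5.16, and the 5 dendritic cell markers 3.66 to 5.01 and 3.08 to 3.24. Of the monocyte markers Csf1r alone fell, while Cx3cr1 and Ccr2 lay at 4.91 to 5.0 and 4.79 to 5.6 over all 8 T cell arrays. The probe sets of these 2 hardly register monocytes themselves: Cx3cr1 was at most at 5.57 in the 12 other arrays, and monocytes averaged 5.59 for Ccr2. They cannot show whether monocyte transcripts were present. The part of such transcripts in the results below was not tested, and their levels are repeated beside the gene groups they move with.

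T cells were higher than the mean of the 6 other types for 2484 genes (25.3% of those tested) and lower for 1762 (18%). By at least 4-fold, 903 genes were higher and 651 lower. The median difference over all genes was 0.14. These calls rest on the spread between arrays of 1 type, and the spread between cell types is wider: with the 10 cell type means taken as the samples, 34 of the genes were called higher and 7 lower, all of them among the calls above (limma on the means; 1505 and 554 at an unadjusted p under 0.05). The Y-linked genes Eif2s3y and Kdm5d are among the 34. The values of all 8 T cell arrays lay above all 12 other arrays for 146 genes (1.49%) and below them for 46 (0.469%). Of those, 144 and 44 also passed the test against the mean.

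**Figure D1:**
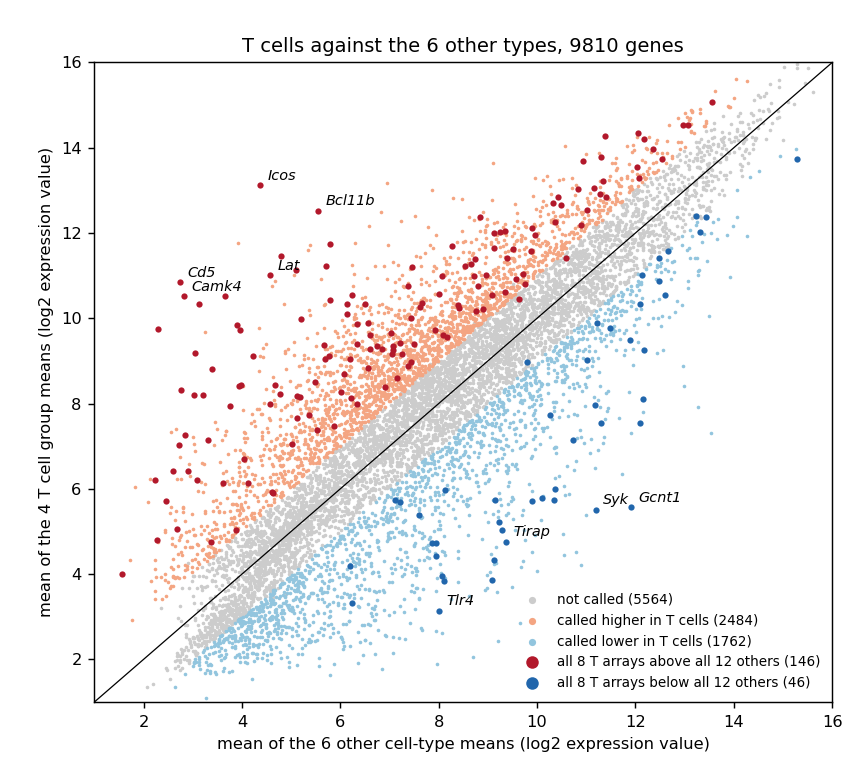
Mean log2 expression value of the 4 T cell groups (y axis) against the mean of the 6 other cell types (x axis), with 1 point per gene for 9810 genes. Pale red and pale blue points are the 2484 genes called higher and the 1762 called lower; dark points are the 146 and 46 genes whose arrays do not overlap, with Icos and Bcl11b at the top and Gcnt1 and Syk far below the diagonal.

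A stricter test asked for every T cell group to exceed every one of the 6 other types, over 24 pairs of groups. It called 13 genes (0.133%; 61 at an unadjusted p under 0.05), and 7 of them belong to the receptor complex or its immediate partners: Cd3g, Cd3d, Cd3e, Trat1, Themis and the receptor alpha variable segments Trav9d-3 and Trav6-3. The others were the scavenger-family receptors Cd6 and Cd5, which tune receptor signalling, the calcium-dependent kinase Camk4, the orphan receptor Gpr83, the ganglioside synthase St8sia1 and the lymph node homing receptor Ccr7. The 2 segments are passed over by the rule for named genes and are named because they complete the set; their probe sets may share sequence with other segments. With LT-HSC, monocytes, granulocytes or erythrocytes left out in turn the count was 12 to 18. Without NK cells it was 32, without B cells 23 and without naive CD4 T cells 26. From only the 2 naive T cell arrays without Y-linked signal it was 56, and 12 of the 13 genes were among them.

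Cd6 lay between 8.91 and 10.37 in the T cell arrays (median 9.87) and between 2.24 and 2.36 in all 12 others (median 2.29), a difference of 7.46 ± 0.10 (adjusted p = 1.03e-14). Its lowest T cell group mean was 6.72 above its highest other mean. No array of another type came near the T cell range, and since all 12 lie at the low end of the scale the size of this gap may be compressed. Cd5, its neighbour on chromosome 19 with no protein-coding gene between them, ranged from 10.01 to 12.18 (median 10.69) against 2.42 to 5.0 (median 2.54), a difference of 8.11 ± 0.25 (adjusted p = 2.2e-11). The highest of these came from 1 of the 2 B cell arrays, the other being at 2.74. Between cell types as samples the adjusted p was 2.96e-06 for Cd6 and 1.26e-05 for Cd5.

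The CD3 chains were all in the set. Cd3g was at 11.15 and 11.54 in the naive CD4 arrays, 12.03 and 11.64 in naive CD8, 8.49 and 8.59 in activated CD4 and 10.32 and 8.90 in activated CD8 arrays. The others lay between 2.81 and 4.83, with the NK arrays highest at 4.83 and 3.76, and the difference was 7.20 ± 0.18 (adjusted p = 4.83e-12). Every T cell array was above every other array, and the activated groups stood below the naive groups. Cd3d ranged from 10.54 to 12.43 against 3.06 to 7.66 (6.66 ± 0.16, adjusted p = 2.39e-12), and here the nearest other arrays were granulocytes at 7.62 and 7.66 and NK cells at 6.39 and 6.95. Cd3e ranged from 7.72 to 9.09 against 3.15 to 4.38 (4.44 ± 0.11, adjusted p = 4.83e-12), with no type standing out among the other 12 arrays. Trat1, a transmembrane adaptor that binds the receptor complex, ranged from 5.85 to 11.01 against 3.10 to 3.85 (5.42 ± 0.18, adjusted p = 3.98e-11). Themis, needed for positive selection in the thymus, ranged from 7.38 to 11.04 against 3.53 to 5.06 (5.95 ± 0.27, adjusted p = 6.25e-10).

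**Figure D2:**
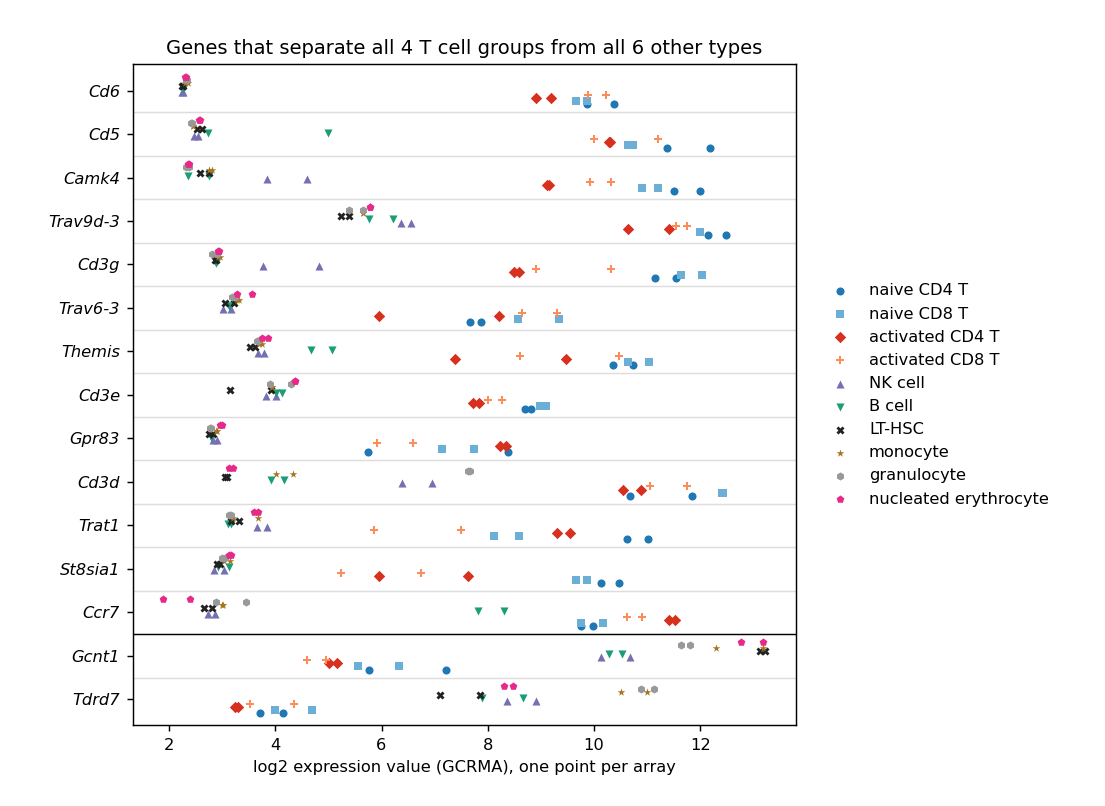
Log2 expression values (x axis) of the 13 genes that every T cell group had above every other type and, below the black line, of the 2 genes that it had below; each point is 1 array, and colour and shape give the cell type. For Cd6 the T cell arrays are at 8.91 to 10.37 and all others at 2.24 to 2.36; for Ccr7 the B cell arrays at 8.30 and 7.82 come closest.

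Cd3g, Cd3d and Cd3e lie next to each other on chromosome 9, and Cd3g and Cd3d are read in opposite directions from starts close together. The 250 bases upstream of the start of each, and of Cd5, are shown because all 4 genes were above every other type in every T cell group and lie in 2 close groups on the genome. They are RefSeq sequences of build GRCm38.p6, written 5′ to 3′ along the gene's own strand; capitals mark GGAAG or its reverse complement CTTCC, the core bound by ETS family factors such as Ets1. They come from chr9:44980432-44980681 on the minus strand (Cd3g), chr9:44981536-44981785 on the plus strand (Cd3d), chr9:45009612-45009861 on the minus strand (Cd3e) and chr19:10738975-10739224 on the minus strand (Cd5).
Cd3g: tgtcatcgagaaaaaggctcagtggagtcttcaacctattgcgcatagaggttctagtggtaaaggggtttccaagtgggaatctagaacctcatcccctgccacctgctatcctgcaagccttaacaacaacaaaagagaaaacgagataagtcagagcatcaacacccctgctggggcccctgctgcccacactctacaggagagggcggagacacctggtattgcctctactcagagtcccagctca
Cd3d: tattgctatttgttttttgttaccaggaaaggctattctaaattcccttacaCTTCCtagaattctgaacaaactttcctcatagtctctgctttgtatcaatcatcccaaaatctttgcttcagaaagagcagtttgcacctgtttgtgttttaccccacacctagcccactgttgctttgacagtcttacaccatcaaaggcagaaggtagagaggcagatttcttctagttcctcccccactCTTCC
Cd3e: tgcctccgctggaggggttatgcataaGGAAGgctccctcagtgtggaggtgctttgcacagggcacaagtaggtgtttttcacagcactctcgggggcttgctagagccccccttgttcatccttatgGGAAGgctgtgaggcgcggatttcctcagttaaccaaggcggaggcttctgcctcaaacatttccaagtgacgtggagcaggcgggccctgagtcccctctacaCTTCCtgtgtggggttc
Cd5: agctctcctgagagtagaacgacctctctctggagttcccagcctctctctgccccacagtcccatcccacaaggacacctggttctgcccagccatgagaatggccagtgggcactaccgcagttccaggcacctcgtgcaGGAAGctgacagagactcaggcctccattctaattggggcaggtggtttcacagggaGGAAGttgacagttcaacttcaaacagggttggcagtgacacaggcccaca
The Cd3d stretch held 2 such runs of letters, Cd3e held 3, Cd5 held 2 and Cd3g held 0. Of the 8 genes of the set above every other type with a window in the table, 4 held GGAAG and 1 held TGTGGT. None of the 4 stretches held the RUNX core TGTGGT or the sequence TATAAA on either strand. Among all 32851 upstream windows of the same length in the table, 64.07% held GGAAG on either strand and 14.05% held TGTGGT. Among the 2043 genes called higher in T cells with a window listed, 70.73% held GGAAG, and among the 1424 called lower 67.21%. A match is a run of letters and not evidence of binding.

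Of the receptor complex and co-receptor list, 7 of 9 genes passed the filter and 7 of 7 were called higher, with a median difference of 5.42 against 0.14 over all genes; Cd4 and Ptcra lay under the filter. For this and the lists below, the shares over all genes were 25.3% higher and 18% lower. Cd247, the zeta chain, was at 10.99 to 12.28 in T cell arrays, 11.01 and 10.69 in NK arrays and 3.39 to 5.28 in the remaining 10 (6.32 ± 0.18, adjusted p = 1.21e-11). For this chain the NK arrays overlapped the T cell range, which they did for none of Cd3d, Cd3e and Cd3g. Cd8a and Cd8b1, which mark the CD8 groups, were called higher too (4.76 ± 0.14 and 4.21 ± 0.12), although the CD4 arrays were only at 3.01 to 4.17 for Cd8b1 and 4.58 to 5.63 for Cd8a.

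Downstream of the receptor, 17 of 21 tested genes of proximal signalling were called higher and 1 lower, with a median difference of 2.71. Lat, the scaffold that the kinase Zap70 phosphorylates, ranged from 10.40 to 11.77 against 2.34 to 9.20 (6.44 ± 0.17, adjusted p = 7.02e-12). All 8 arrays were above all others, the NK arrays at 9.20 and 8.33 and LT-HSC at 6.45 and 6.36 coming next. Camk4 ranged from 9.12 to 12.00 against 2.31 to 4.59 (7.70 ± 0.13, adjusted p = 8.55e-14), with only the NK arrays above 3. Prkcq, the protein kinase C isoform of the immune synapse, differed by 5.59 ± 0.17 (adjusted p = 2.2e-11), but its 2 NK arrays averaged 12.1 and lay within the T cell range of 11.10 to 13.23. Bcl10, a link to NF-kappaB, was the member called lower (-1.59 ± 0.17, adjusted p = 1.45e-06). Of its other probe sets, 1 differed by -1.66 and the other 2 by -0.43 and -0.27. Nfatc3 and Vav1 differed by 0.51 ± 0.15 and 0.33 ± 0.19 and were not called. Among negative regulators of the same pathway, 5 of 16 were called higher and 2 lower, with a median of 0.21, near that of all genes. Ubash3a (3.69 ± 0.29), Sla2 (2.42 ± 0.20), the diacylglycerol kinase Dgka (1.92 ± 0.23) and Sit1 (1.56 ± 0.36) were called higher, the E3 ligase Rnf128 (-2.24 ± 0.11) and the adaptor Pag1 (-1.22 ± 0.19) lower. Sit1 stood out in the naive groups only (5.035 and 6.045), with the activated groups at 2.475 and 2.45 and the other types at 2.355 to 2.695. Activated Dgka means (10.655 and 10.67) were not above NK cells, B cells, monocytes and granulocytes (10.675 to 12.1), and erythrocytes were at 5.95. The other probe set of Sla2 differed by 0.48, and from only the 2 naive arrays without Y-linked signal the difference of Pag1 was 0.10.

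Costimulatory, inhibitory and adhesion receptors gave 17 of 19 called higher and 1 lower, with a median of 4.02. Icos had the largest difference of the comparison among genes without overlap. Its arrays read 12.99 and 13.15 in naive CD4, 12.26 and 12.22 in naive CD8, 13.63 and 13.73 in activated CD4 and 13.15 and 13.87 in activated CD8 T cells. Among the others, NK cells were at 10.79 and 11.25, and the remaining 10 arrays between 1.32 and 5.74, so that NK cells were nearer to T cells than to any other type. The difference from the mean of the 6 was 8.75 ± 0.46 (adjusted p = 1.98e-09; 0.0433 between cell types as samples), and its other probe sets differed by 2.02 and 0.31. Cd28 ranged from 9.50 to 11.56 against 2.85 to 9.74 (6.14 ± 0.30, adjusted p = 1.12e-09), its upper values again from NK cells with a mean of 9.5. The adhesion receptor Cd44 was called lower (-1.78 ± 0.14, adjusted p = 8.85e-08), with monocytes at a mean of 13.8 and granulocytes at 13.6. Havcr2 was not called (0.43 ± 0.29).

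**Figure D3:**
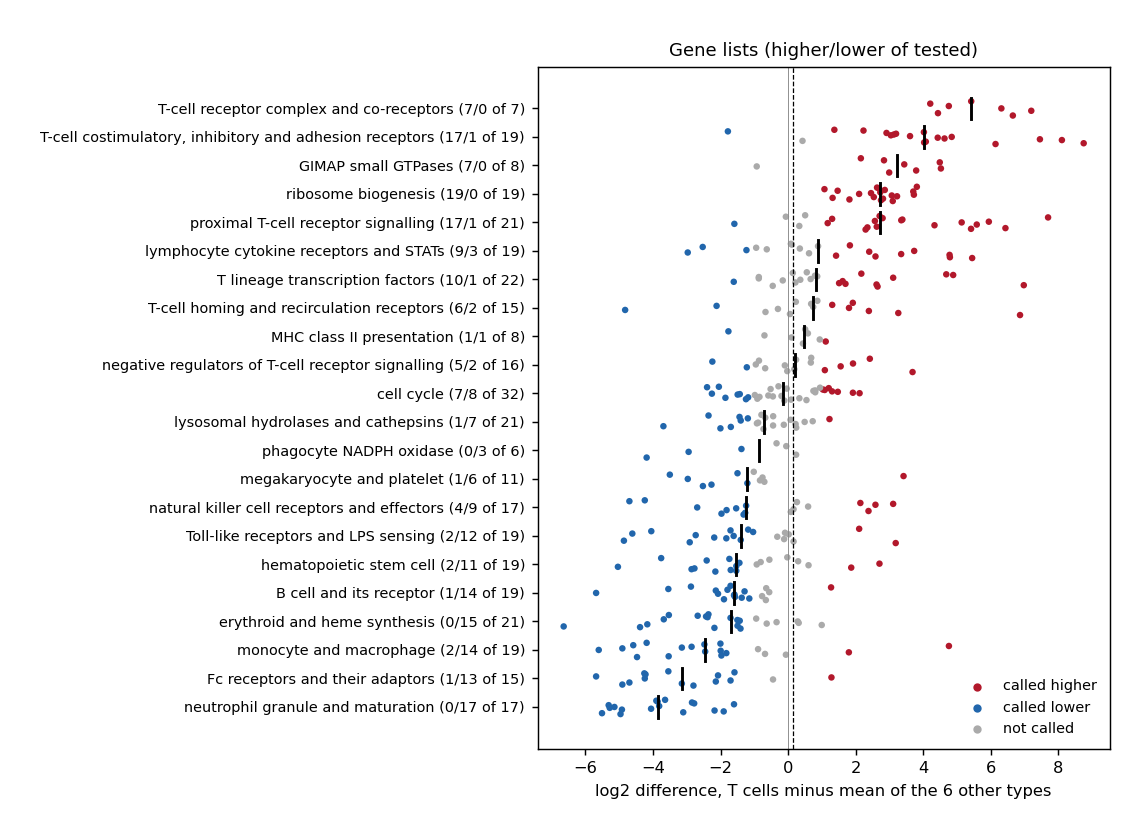
Log2 difference between T cells and the mean of the 6 other types (x axis) for the tested members of 22 gene lists, 1 point per gene, red where called higher, blue where called lower and grey where not called. Black bars are list medians, from 5.42 for the receptor complex to -3.86 for neutrophil granule genes, the dashed line is the median of all genes (0.14), and numbers beside each name give members higher and lower of those tested.

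T lineage transcription factors were more mixed, with 10 of 22 called higher, 1 lower and a median of 0.83. Bcl11b, which commits thymic progenitors to the T lineage, ranged from 11.64 to 13.68 against 2.57 to 9.25 (6.98 ± 0.42, adjusted p = 7.33e-09), and NK cells came nearest at 8.18 and 9.25. Foxo1, which maintains quiescence and Il7r expression, was called higher by 3.11 ± 0.20 although B cells, at a mean of 12.8, lay within the T cell range. For Tbx21 and Eomes, T-box factors of effector lymphocytes, the NK arrays at 12.76 and 12.94 and at 14.09 and 14.08 exceeded every T cell array; both were called higher than the mean of the 6 types (4.89 ± 0.17 and 4.68 ± 0.20). Runx1 was called lower (-1.61 ± 0.20, adjusted p = 8.58e-06), but from only the 2 naive arrays without Y-linked signal its difference was 0.27. Klf2 and Foxp1 were not called at -0.87 ± 0.35 and -0.87 ± 0.36, and Foxp1 differed by 3.74 with its most variable probe set. Tcf7 was not analysed here.

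Of 15 homing receptors, 6 were called higher and 2 lower (25.3% and 18% over all genes), with a median of 0.74. Ccr7, which leads naive cells into lymph nodes, ranged from 9.75 to 11.52 against 1.88 to 8.30 (6.87 ± 0.12, adjusted p = 1.97e-13), with B cells at 8.30 and 7.82 and the other 10 arrays at most at 3.45. Ccr9, the gut homing receptor, Cxcr3 and Itgae were called higher by 3.26 ± 0.20, 2.39 ± 0.28 and 1.92 ± 0.28. For Cxcr3 the NK mean of 11.99 exceeded every T cell array (at most 11.38). For Ccr9 the naive arrays were at 10.72 to 11.82, while the activated arrays at 4.98 to 6.72 overlapped the other types at 4.69 to 5.98. For Itgae only the naive CD8 arrays, at 11.47 and 11.95, stood above all others. Cxcr4, the marrow retention receptor, went the other way (-4.82 ± 0.25, adjusted p = 2.02e-09). Its T cell arrays read 6.52 and 5.79 in naive CD4, 9.31 and 8.19 in naive CD8, 3.12 and 3.90 in activated CD4 and 3.40 and 1.84 in activated CD8 cells, and the others 7.84 to 12.36. The naive CD8 arrays lay above both NK arrays, and the other 6 T cell arrays lay below all 12 arrays of the other types. Itga4 was called lower as well (-2.12 ± 0.23), but its naive arrays at 12.23 to 12.54 were within the range of the other types, and its other probe sets differed by -1.52 to -0.06. From only the 2 naive arrays without Y-linked signal its difference was 0.48.

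Cytokine receptors and STATs gave 9 of 19 called higher and 3 lower, with a median of 0.89. Il7r, the receptor of the survival cytokine IL-7, ranged from 9.02 to 13.85 against 1.76 to 11.10 (5.45 ± 0.30, adjusted p = 3.13e-09), and the NK arrays at 10.92 and 11.10 lay above all 4 activated T cell arrays. Il6st, the signalling chain of the IL-6 family, had no overlap, with 8.83 to 11.17 against 3.03 to 8.36 (4.78 ± 0.32, adjusted p = 1.88e-08). Il2ra, the high-affinity chain of the IL-2 receptor, was called higher by 4.79 ± 0.11 through the activated groups alone, at 11.43 to 12.02, while the naive arrays at 2.46 to 3.68 were near the others at 2.44 to 2.69. Il18rap (-2.97 ± 0.40) and Stat3 (-2.53 ± 0.31) were called lower, the latter with other probe sets at -0.32, -0.19 and 0.19.

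The difference from the mean of the 6 types was spread unevenly over them. T cells differed least from B cells, with 1206 genes higher (12.3%) and 1437 lower (14.6%), and from NK cells, with 1562 higher (15.9%) and 1568 lower (16%). Against LT-HSC 2630 were higher (26.8%) and 1874 lower (19.1%), against granulocytes 3133 (31.9%) and 2324 (23.7%), against monocytes 3664 (37.3%) and 2020 (20.6%), and against nucleated erythrocytes 3773 (38.5%) and 1914 (19.5%). Of the 2484 genes higher than the mean, 350 were called higher than each of the 6 types, 562 than 5 of them and 4 than none singly. B cells were the highest other type for 1015 of the 2484, NK cells for 500 and LT-HSC for 449, while monocytes were for 96. Of the 1762 lower genes, 98 were called lower than each of the 6 types, and NK cells were the lowest other type for 452.

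**Figure D4:**
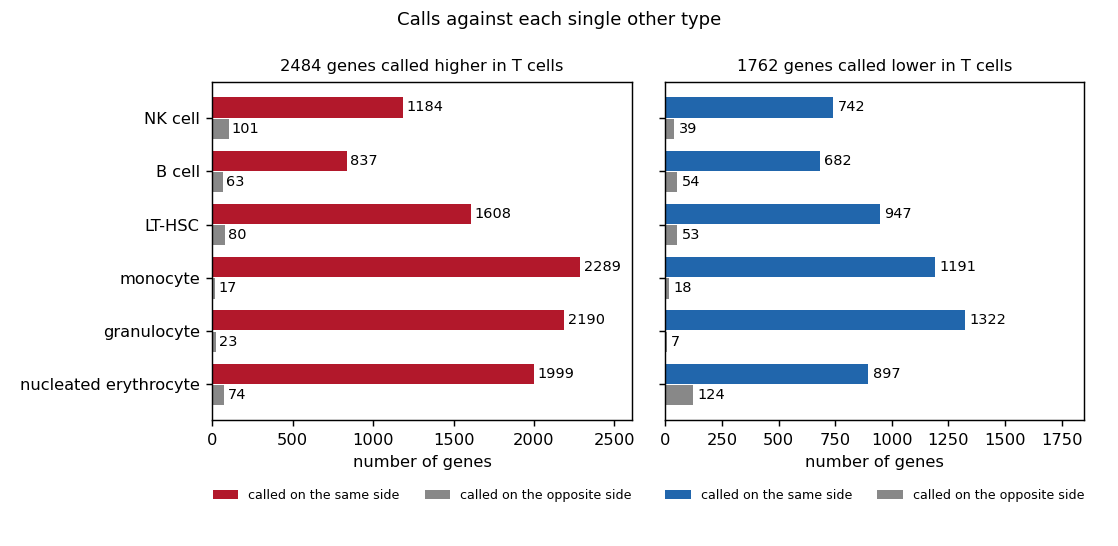
Number of genes (x axis) called on the same side (coloured bars) and on the opposite side (grey bars) when the T cell mean is set against 1 other type at a time (y axis), for the 2484 genes higher than the mean of the 6 types (left) and the 1762 lower ones (right). The left panel is longest for monocytes (2289) and shortest for B cells (837); in that panel NK cells have the most genes on the opposite side (101), and in the right panel nucleated erythrocytes do (124).

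Genes could be above the mean of the 6 types and still below 1 of them. Against NK cells this held for 101 genes, among them Fasl (NK mean 12.7, T cell groups 5.7 to 8.9), the chemokine Ccl5 (15.1 against 5.8 to 13.9) and the granule trafficking gene Sytl2 (11.8 against 3.6 to 8.6). Against LT-HSC it held for 80, such as Bex1, Plagl1 and Ctla2a with LT-HSC means of 15.03, 10.8 and 15.8. Against nucleated erythrocytes it held for 74, among them the ribonucleotide reductase subunit Rrm2 (15.4), the lactate transporter Slc16a1 (13.9) and the desaturase Fads1 (11.5). Against B cells there were 63, with Pou2af1, the coactivator of octamer factors, at a B cell mean of 14.0 and 8.1 to 9.4 in the T cell groups. Against granulocytes there were 23, such as the ectonucleotidase Nt5e, and against monocytes 17, such as Gadd45b. The call above the mean was weak for some of these genes: over 42 alternative settings it was lost in 27 for Gadd45b, which turned sign in 1, in 22 for Rrm2, which turned sign in 2, and in 17 for Ctla2a. Other probe sets differed by -1.33 and -0.82 for Rrm2 and by -0.68 for Slc16a1.

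The GIMAP genes, small GTPases of lymphocyte survival clustered on chromosome 6, were an example of a lymphoid rather than a T cell pattern. Of 8 tested, 7 were called higher and none lower, with a median of 3.22, yet none exceeded every other type. Gimap4 had means of 14.5 and 14.4 in naive and 12.4 and 13.3 in activated T cells, 14.8 in NK cells and 14.0 in B cells, and between 5.7 and 7.2 in the 4 remaining types (4.53 ± 0.45, adjusted p = 8.32e-07). For Gimap3 and Gimap6 (3.79 ± 0.15 and 3.44 ± 0.12) an NK array was also the highest of all 20, and the activated T cell arrays lay below both B cell arrays. Gimap7 differed by 4.49 ± 0.21, but its other probe set differed by -1.42. Gimap5 was not called (-0.93 ± 0.38, adjusted p = 0.0431).

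On the lower side, every T cell group was below every other type for 2 genes (0.0204%; 25 at an unadjusted p under 0.05). Gcnt1, which builds the core 2 branch of O-linked glycans, read 7.21 and 5.77 in naive CD4, 5.56 and 6.33 in naive CD8, 5.02 and 5.16 in activated CD4 and 4.95 and 4.59 in activated CD8 arrays. The other arrays lay between 10.13 and 13.23, lowest in NK and B cells, and the difference was -6.33 ± 0.20 (adjusted p = 2.2e-11; 0.00214 between cell types as samples). Its highest T cell group mean was 3.91 below its lowest other mean. Tdrd7, a Tudor domain protein of RNA granules, ranged from 3.24 to 4.69 against 7.11 to 11.13 (-5.22 ± 0.17, adjusted p = 4.01e-11). Without the first LT-HSC array Gcnt1 alone remained in the set, and from the 2 naive arrays without Y-linked signal the set held Gcnt1 and the adhesion protein Vcl. Vcl ranged from 6.16 to 8.34 against 9.96 to 14.37 (-4.55 ± 0.14, adjusted p = 2.37e-11).

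Syk, the kinase of B cell and Fc receptors for which T cells use the related Zap70, had no overlap either. Its T cell arrays read 6.85 and 7.76 in naive CD4, 5.43 and 6.30 in naive CD8, 5.36 and 5.01 in activated CD4 and 4.14 and 3.2 in activated CD8 cells, against 8.28 to 13.18 in the others (-5.68 ± 0.20, adjusted p = 5.86e-11). LT-HSC and erythrocytes, at 8.28 to 9.05, were the nearest. Plcg2, the phospholipase downstream of it, differed by -4.26 ± 0.15 (adjusted p = 6.09e-11), with 5.74 to 8.13 against 8.02 to 12.59 and a slight overlap. Klf9, Nuak2, Arrdc3, Fam214b, Cd93 and Carhsp1 were, beside Tlr4 and Tirap below, the genes without overlap that came next by size, from -4.79 ± 0.24 for the kinase Nuak2 to -4.27 ± 0.15 for Carhsp1. For Cd93 the gap was narrow, at most 4.37 in T cells against at least 4.45.

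The LPS receptor and its adaptor were among the genes without overlap on the lower side, also in the groups that the labels describe as treated with LPS. Tlr4, the LPS receptor, lay between 2.87 and 3.41 in all 8 T cell arrays. It was at 6.79 and 4.25 in LT-HSC, 8.25 and 7.71 in NK cells, 8.40 and 8.70 in B cells, 9.92 and 11.11 in monocytes, 11 and 10.85 in granulocytes and 4.33 and 4.72 in erythrocytes (-4.86 ± 0.28, adjusted p = 4.26e-09; 0.128 between cell types as samples). No T cell array reached any other array, and activated and naive cells did not pass the test against each other (0.27, adjusted p = 0.668). Its 3 other probe sets differed by -1.0, 0.06 and 0.07. Tirap, its adaptor, ranged from 3.69 to 5.82 against 5.87 to 12.22 (-4.61 ± 0.21, adjusted p = 6.47e-10), with erythrocytes at 5.87 and 6.54 next to the T cells. Of the 19 tested genes of the Toll-like receptor and LPS list, 12 were called lower and 2 higher, with a median of -1.40. Irak3 (-4.05 ± 0.22) and Tlr2 (-2.91 ± 0.22) were lower too. The receptor Tlr1 (3.19 ± 0.43) and the inflammasome adaptor Pycard (2.11 ± 0.14) were called higher. For Tlr1 the B cell mean of 13.75 exceeded every T cell array (at most 12.71). Tlr3 differed by 0.16 ± 0.12, with naive CD8 T cells at a mean of 8.6 and the other T cell groups at 3.3 to 3.5.

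Most members of the lists of other lineages were lower in T cells, and some genes stand in more than 1 list. The mean of the 6 types includes the type that most of these lists describe, so lower calls were largely fixed by that. They do not by themselves set T cells apart from the other types that lack these transcripts. The T cell means of S100a9 and Ngp were 4.17 and 2.66, against 2.94 to 4.085 and 2.175 to 2.245 in LT-HSC, NK and B cells. Of 17 neutrophil granule genes 17 were called lower (median -3.86), the calprotectin subunit S100a9 by -5.51 ± 0.72, the gelatinase Mmp9 by -5.31 ± 0.29, Ngp by -5.28 ± 0.25 and Lcn2 by -5.14 ± 0.57. S100a9 and Lcn2 were at 10.68 and 8.83 in naive CD4 array 2. Of 15 Fc receptor genes 13 were lower (median -3.14), led by Syk, Fcgr3 (-4.91 ± 0.22) and Fcer1g (-4.70 ± 0.31), and the adaptor Hcst was higher (1.28 ± 0.30). Of 19 monocyte genes 14 were lower (median -2.45), among them Lyz2 (-5.61 ± 0.63) and Emilin2 (-4.58 ± 0.15). Csf1r, the receptor of the monocyte growth factor, differed by -4.47 ± 0.47, although the naive arrays read 7.91 to 10.21 and the activated arrays 2.22 to 4.63. The monocyte list held 2 genes called higher, Irf8 (1.80 ± 0.30), a factor that lymphocytes also use, and Ms4a6c (4.76 ± 0.31), for which another probe set differed by -0.51. Of 21 erythroid genes 15 were lower and none higher (median -1.70), with Nfe2 at 2.03 to 2.07 in all T cell arrays (-6.64 ± 0.15). Of 19 stem cell genes 11 were lower and 2 higher (median -1.53), with Lmo2 at -5.04 ± 0.16 and the chromatin reader Mllt3 at 2.71 ± 0.15. For Mllt3 the LT-HSC, NK and erythrocyte means of 9.965, 9.73 and 9.56 were level with the T cell mean of 9.56. Lower means were those of B cells (6.865), monocytes (2.49) and granulocytes (2.525). Of 11 megakaryocyte genes 6 were lower (median -1.20), and the thrombin receptor F2r was higher (3.42 ± 0.27). The F2r means of LT-HSC (14.2) and NK cells (13.6) exceeded every T cell array (at most 13.41). Of 19 B cell genes 14 were lower and 1, Pou2af1, higher (median -1.59). Of 21 lysosomal genes 7 were lower, led by Ctsh (-3.69 ± 0.56) and Grn (-2.35 ± 0.20), and 1 higher (median -0.73), the cholesterol carrier Npc2. Npc2 had no overlap, at 12.99 to 13.63 against 11.60 to 12.48 (1.23 ± 0.11, adjusted p = 5.04e-07), but its other probe sets differed by 1.72, -0.01 and -0.04. Of 6 subunits of the phagocyte oxidase 3 were lower, Cybb by -4.19 ± 0.60, and none higher (median -0.86).

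NK receptors and effectors were divided. Of 17 tested, 9 were called lower and 4 higher, with a median of -1.24. Tyrobp (-4.24 ± 0.36), Cd244a (-2.69 ± 0.16) and Klrb1a (-1.97 ± 0.11) were lower. For Klrb1a only NK cells stood apart, at a mean of 14.1, with the T cell mean at 3.62 and the remaining types at 3.465 to 4.64. The killing molecules Fasl (3.11 ± 0.30) and Gzmb (2.59 ± 0.52), the inhibitory receptor chain Klrd1 (2.38 ± 0.25) and Ccl5 (2.14 ± 0.47) were higher. The other probe set of Fasl differed by -0.61. Klrd1 was at 11.51 to 14.11 in the naive arrays and 3.18 to 11.54 in the activated ones, while Ncr1, Klre1 and Klrb1a, which mark NK cells, were under 5 in each. Gzmb was carried by activated CD8 T cells, at a mean of 13.5, and from the 2 naive arrays without Y-linked signal its difference was -1.32.

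Ribosome biogenesis was the process list in which T cells stood highest, with 19 of 19 tested genes called higher and a median of 2.73, although none was above every other type. Utp20, of the small subunit processome, ranged from 10.18 to 12.44 against 3.77 to 10.27 (3.81 ± 0.26, adjusted p = 2.17e-08). Rrp12, an export factor of pre-ribosomes, read 6.82 and 7.13 in naive CD4, 7.67 and 8.06 in naive CD8, 10.39 and 10.17 in activated CD4 and 10.23 and 10.63 in activated CD8 arrays, against 3.17 to 7.44 (3.73 ± 0.19, adjusted p = 1.37e-09). Its activated arrays were far above all others, while the naive arrays overlapped those of B cells and LT-HSC. Wdr12 and Nop14 differed by 3.71 ± 0.25 and 3.23 ± 0.36. Of 32 cell cycle genes 7 were called higher and 8 lower, near the shares over all genes (25.3% and 18%), with a median of -0.15. Among those called, the replication helicase subunits Mcm2 and Mcm3 were higher (2.12 ± 0.21 and 1.92 ± 0.19), and the centromere histone Cenpa (-2.40 ± 0.23), the motor protein Kif23 (-2.25 ± 0.18) and the ubiquitin enzyme Ube2c (-1.85 ± 0.20) were lower. Nucleated erythrocytes were at means of 11.7 for Mcm2, above every T cell array (at most 11.14), and 12.8 for Mcm3, within the T cell range. For Ube2c and Nusap1 (-2.05 ± 0.45) nucleated erythrocytes were far above all other types, at means of 13.8 and 12.8.

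The 4 T cell groups differed among themselves. Activated T cells were higher than naive T cells for 1676 genes (17.1%) and lower for 1915 (19.5%), a difference taken between T cell arrays only. Of the 2484 genes higher in T cells than in the other types, 1100 (44.3%) were also higher in activated than in naive cells and 294 (11.8%) lower, while 1090 were not called. Of the 1762 lower genes, 595 (33.8%) were lower in activated cells and 54 higher. Naive and activated groups both enter the T cell mean that selects these sets, so a gene changed in either alone can enter through it. Shares above the 17.1% and 19.5% of all genes are therefore no separate result. The largest rises among the 2484 higher genes were in Il2ra (8.84), the branched-chain transaminase Bcat1 (8.07), the alanine transaminase Gpt2 (7.92) and Irf4 (7.52), the factor of effector differentiation. The largest falls among those with a gene name were in Lypd6b (-6.84), Dzip1 (-6.13), the transporter Slc16a5 (-5.86) and Dtx1 (-5.71), a Notch pathway ligase. Bcat1 went from 2.2 and 2.1 in the naive groups to 9.9 and 10.6 in the activated groups, with all other types at 2.0 to 2.3. Slc16a5 went from 8.4 and 8.6 to 2.7 and 2.6, with all other types at 2.5 or 2.6.

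**Figure D5:**
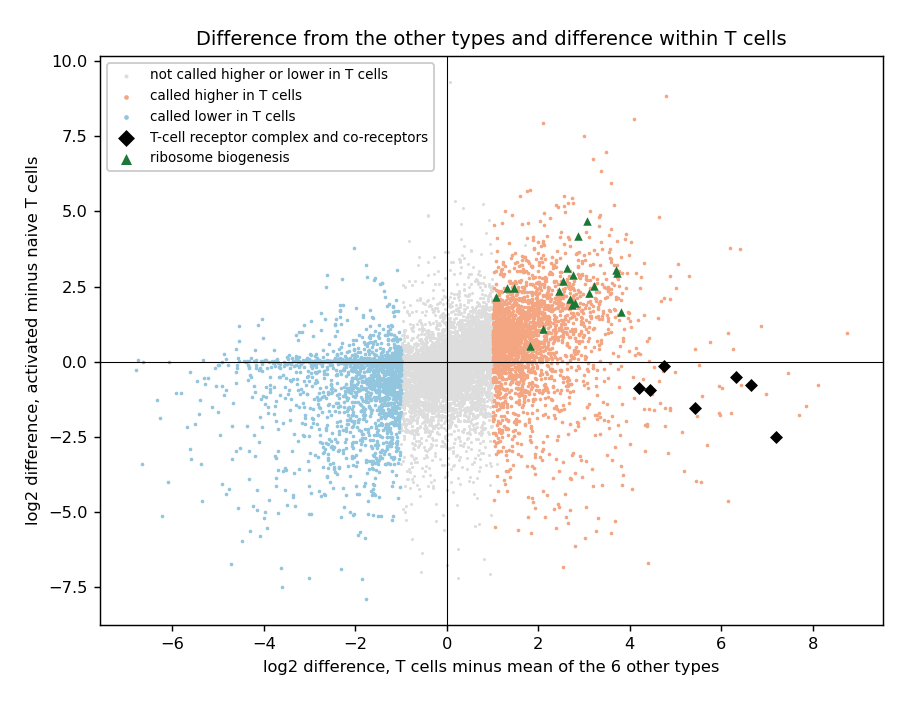
Log2 difference of activated minus naive T cells (y axis) against the log2 difference of T cells minus the mean of the 6 other types (x axis), with 1 point per gene. Genes of the receptor complex (black diamonds) lie to the right and below 0, down to -2.52 for Cd3g, and ribosome biogenesis genes (green triangles) lie to the right above 0.

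The lists behaved differently between activated and naive cells, where 17.1% of all genes were higher and 19.5% lower. Of 19 ribosome biogenesis genes 18 were higher in activated cells, among them Rrp12 (2.94, adjusted p = 2.75e-06) and Wdr12 (3.04, adjusted p = 2.51e-05). Of the 21 proximal signalling genes 10 were lower and 1 higher, and of the 16 negative regulators 10 were lower and none higher, such as Dgka (-3.16, adjusted p = 9.64e-06). Of the 7 tested receptor complex genes 2 were lower, Cd3g (-2.52, adjusted p = 8.49e-06) and Trat1 (-1.53, adjusted p = 0.000487). Of 19 costimulatory receptors 6 were higher and 3 lower, of 15 homing receptors 9 were lower, Ccr9 by -5.62, and 1, Ccr7, was higher (1.20, adjusted p = 0.000159). MHC class II genes did not move one way against the other types, with 1 of 8 called higher, 1 lower and a median of 0.47, but 8 of 8 were lower in activated than in naive T cells. H2-Ab1 read 9.50 and 11.22 in naive CD4, 10.53 and 11.69 in naive CD8 and 5.67 to 7.21 in the 4 activated arrays, against 14.17 and 13.81 in B cells. Against the other types H2-Ab1 differed by 1.12 ± 0.43, and its other probe sets by -0.29 and 0.10. Beside it, the B cell marker Ms4a1 was at 7.16 to 8.58 in naive and 4.34 to 6.76 in activated arrays. Cd79b, of the same marker list, was at 4.84 to 8.56 and 2.88 to 6.09, and the dendritic cell marker Itgax at 4.78 to 5.63 and 3.28 to 3.35. The third B cell marker, Cd79a, was at 2.51 to 2.68 in all 8, but its probe set averaged only 6.745 in B cells. Of 19 Toll-like receptor and LPS genes 9 were lower in activated cells and none higher. Beside them, the monocyte marker Csf1r was at 7.91 to 10.21 in naive and 2.22 to 4.63 in activated arrays. Cx3cr1 and Ccr2, of the same marker list, lay at 4.91 to 5.0 and 4.79 to 5.6 in all 8 arrays. Their probe sets hardly register monocytes (at most 5.57 in the 12 other arrays for Cx3cr1, monocyte mean 5.59 for Ccr2), so they could not move with Csf1r. The part of such transcripts in this was not tested.

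CD4 and CD8 T cells differed less, with 90 genes higher in CD4 (0.917%) and 231 lower (2.35%). Without naive CD4 array 2 the 231 became 367, and without activated CD4 array 2 or naive CD8 array 1 the 90 became 56 and 58. Naive CD4 array 2 held S100a9 at 10.68 and lacked Y-linked signal, and the part of either in this count was not tested. Of the genes higher in T cells, 37 were also higher in CD4 cells and 105 higher in CD8 cells. Among these, Cd8a (-7.79) and Cd8b1 (-7.69) led the CD8 side with Nkg7 (-5.98, adjusted p = 2.94e-05), a granule membrane protein, and Klrd1 (-4.71, adjusted p = 1.15e-05). The CD4 side was led by the sialyltransferase St8sia6 (4.02, adjusted p = 8.84e-05), the helper cytokine Il21 (3.57, adjusted p = 0.0163), Gpm6b (3.48, adjusted p = 0.000744) and Adh1 (2.92, adjusted p = 0.00528). St8sia6, at a mean of 11.4 in naive CD4 cells, was at 4.9 in activated CD4 and 4.8 in naive CD8 cells. Gpm6b was at 8.8 in naive and 5.0 in activated CD4 cells. Il21 was at 9.01 and 10.01 in activated CD4 T cells, 2.52 and 6.93 in activated CD8, 3.46 and 6.34 in naive CD4 and 2.54 and 2.56 in naive CD8 cells. Trat1 and Syk, described above, also differed between the CD4 and CD8 groups, by 2.61 (adjusted p = 9.97e-05) and 1.48 (adjusted p = 0.0163).

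Set against the same 12 other arrays, naive T cells had 2177 genes higher (22.2%) and 1407 lower (14.3%), and activated T cells 2835 higher (28.9%) and 2366 lower (24.1%). The 2 comparisons share those arrays. Some genes lay on opposite sides in them. Klf2, for example, differed by 1.08 ± 0.44 in naive and by -2.81 ± 0.44 in activated T cells.

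Afp and Tdrp, better known from other tissues, also separated the arrays fully. Afp, the fetal serum protein alpha-fetoprotein, ranged from 9.54 to 11.88 in T cells against 3.07 to 8.97 (6.02 ± 0.30, adjusted p = 1.47e-09; 0.0805 between cell types as samples), with B cells at 8.96 and 8.97 and LT-HSC at 8.33 and 7.10 below the T cells. Of its 4 other probe sets, 2 differed by 4.48 and 2.97 and the remaining 2 by 0.08 and 0.01. Tdrp, a testis nuclear protein, ranged from 11.20 to 11.84 in the naive and 4.74 to 8.04 in the activated arrays, against 2.51 to 4.61 (6.14 ± 0.26, adjusted p = 2.96e-10).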

How the data were processed

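RNA of 10 sorted mouse cell types was measured on 20 arrays, 2 per type. The deposited values are log2 expression values, which the authors made with GCRMA per the submitters' processing notes; the version and settings are not given in the sources used. GCRMA corrects background, normalizes across arrays and compresses differences near the low end. Of 45101 probe sets, 34945 had 1 gene symbol in the platform annotation, 932 had several and 9160 were not listed. Each of 18193 genes was represented by its probe set with the highest mean, and 9810 genes with at least 2 arrays above 5 were tested. Differences were fitted with limma 3.58.1 (lmFit and eBayes, R 4.3.3) on 10 group means, with 10 residual degrees of freedom. A gene was called when its log2 difference reached 1 in size with a Benjamini-Hochberg adjusted p under 0.05. The test of every T cell group against every other type used the smallest of the 24 pairwise differences and the largest of their p-values. The script was checked on simulated data.

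Replicate arrays correlated at 0.945 (monocytes) to 0.988 (B cells) across genes. Members, lists and tests were chosen with earlier results of these data known. Genes were named by rule: the 12 largest non-overlapping differences on each side, the genes beyond every other type, members of each list (up to 4 on the main side, 2 on the other and 2 not called), the largest differences within T cells, and 3 genes per type that reversed against it. Unnamed transcripts and receptor segments were passed over. Alternatives covered scaling, the filter, the choice of probe set, array weights, a replicate block, and leaving out arrays and groups.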

Additional observations from a re-analysis of the deposited data

Results flagged for a closer look

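For 10 named genes, naive and activated T cells lay on opposite called sides of the mean of the 6 other types, and the difference between activated and naive cells itself passed the test (limma, adjusted p under 0.05). Both comparisons use the same 12 other arrays, and the tested difference uses T cell arrays only. Higher in naive and lower in activated cells were the T cell trafficking factor Klf2 (activated minus naive -3.90), the MHC class II modulator chain H2-Ob (-7.89), Cd7 (-3.34), the RNA sensor Tlr3 (-2.72), the Notch ligase Dtx1 (-5.70) and Xkrx (-5.59). Of these, H2-Ob and Xkrx had their highest mean of all types in B cells (15.4 and 10.13), and Dtx1 was at a mean of 8.65 there. In the same arrays the B cell markers Ms4a1 and Cd79b were at 7.16 to 8.58 and 4.84 to 8.56 in naive and 4.34 to 6.76 and 2.88 to 6.09 in activated cells, and the dendritic cell marker Itgax at 4.78 to 5.63 and 3.28 to 3.35; their part in these differences was not tested. Activated Cd7 means (2.03 and 1.995) were level with every other type but NK cells (8.56). Tlr3 was at 8.62 in naive CD8 but 3.545 in naive CD4 cells. Activated Dtx1 means (3.13 and 3.655) lay above LT-HSC, monocytes, granulocytes and erythrocytes (2.765 to 2.99). Lower in naive and higher in activated cells were the replication factor Gins1 (3.90), the transaminase Gpt2 (7.92), Bex1 (5.68) and Plagl1 (5.50). For Gins1 the erythrocyte mean (11.88) exceeded both activated means (9.91 and 10.9), and the naive means (6.455 and 6.555) lay above LT-HSC (6.135) and monocytes (5.36). Naive Gpt2 means (3.275 and 3.525) were near those of erythrocytes, granulocytes and NK cells (3.345 to 3.76), while monocytes were at 8.62 and LT-HSC at 7.345. Over all genes tested, 134 lay on the first pair of sides and 50 on the second. Groups of 2 arrays allow no test for a single array that stands apart.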

How the results depend on the processing

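The counts of 2484 higher and 1762 lower genes ranged from 2431 to 2523 and from 1710 to 1818 when 1 array was left out. With the cell type means as samples 34 and 7 genes were called, and 146 and 46 had arrays that do not overlap. The set above every other type (13) held 9 to 15 genes with 1 array left out, 32 without NK cells, 23 without B cells, 26 without naive CD4 T cells and 56 from only the 2 arrays without Y-linked signal, an alternative chosen after seeing the data. The set below (2) held 1 to 3 with 1 array left out, 5 without NK cells, 5 without B cells, 5 without nucleated erythrocytes and 4 without naive CD4 T cells. Leaving out 1 array gave 56 to 100 genes higher and 155 to 367 lower in CD4 than CD8 cells.

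The replicate block gave 2482 higher, 1760 lower, 13 above and 2 below every type, and 89 and 223 between CD4 and CD8 cells. Deviations of same-numbered arrays correlated at -0.256 to 0.213 over 45 pairs of groups, 9 of them above 0.1, and the numbers were not taken to pair the samples. The naive CD4 and naive CD8 arrays correlated at 0.123 by number, and their arrays numbered 2 share the lack of Y-linked signal.

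Of 7886 combinations of 188 named genes and settings, 7396 kept direction and call, 303 lost the call, 166 gained it and 21 turned sign. Both were kept under every setting run for 25 of the 188 genes. For many others, such as Lat, Cd28, Syk and Tlr4, the call was lost only with the cell type means as samples. The cause of the changes was not tested. With the most variable probe set Foxp1 differed by 3.74 and Npc2 by -0.0375. Tlr3 gave -1.14 without naive CD8 T cells, St8sia6 -0.50 without naive CD4 T cells, Socs3 -0.10 without erythrocytes and Rrm2 -0.37 without monocytes. From only the 2 arrays without Y-linked signal, both naive, the differences were 0.10 for Pag1, 0.27 for Runx1, 0.48 for Itga4, -1.48 for Gins1, 2.13 for H2-Ob, -1.32 for Gzmb, 0.11 for Ctsh, -2.24 for Gpt2, -1.0 for Irf4, -0.42 for Bex1, -1.06 for Plagl1, -0.85 for Gadd45b, -0.96 for Msmo1, -0.34 for Slc16a1 and -0.36 for Rrm2. With 2 pooled arrays per type, the number of arrays limits the precision.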

Other observations

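Several families of the protein-making and energy machinery leaned to the T cell side. They were picked by symbol after the genes without overlap had been seen, so their counts describe these data and support nothing further. Of 74 mitochondrial ribosomal protein genes (Mrpl and Mrps), 66 were called higher in T cells and 0 lower (89.2%, median difference 1.89), 5 of them without overlap, against 25.3% of all genes. Of these 74, 53 were also higher in activated than in naive T cells and 0 lower. Of 32 subunits of respiratory complex I, 22 were higher (68.8%, median 1.26), and of 6 outer membrane import genes (Tomm) 4 were (66.7%, median 1.38). Of 44 proteasome genes 28 were higher (63.6%, median 1.20), 27 of the 44 being higher and 2 lower in activated cells. Cytosolic ribosomal proteins (Rpl and Rps) were higher for 28 of 45 (62.2%, median 1.24), but between activated and naive cells their median difference was -0.14, with 3 higher and 0 lower.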
